A study of Mus musculus with 9 samples.

Results

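Levels of the miR-181 family were followed in MIN6 cells and mouse liver, in 9 libraries of small RNA. Its members were chosen by name: the mature miRNAs miR-181a-5p, miR-181b-5p, miR-181c-5p and miR-181d-5p, and the 3p arms of the 6 hairpins that carry them. That makes 10 arms, with hairpin copies of 1 miRNA merged, beside the 16484 5′ ends that entered the test across the series. Of the 10 arms, 9 had at least 1 count in some library.

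MIN6 is a mouse cell line that resembles pancreatic beta cells, taken from an insulinoma, and it was grown in high-glucose medium without further treatment. Its libraries were 3 replicates prepared with the Illumina TruSeq kit (TS-GAIIx), 3 prepared with the older Illumina v1.5 kit (v1.5-GAIIx) and 1 prepared with the Bioo Scientific NEXTflex V2 kit (NF-HiSeq). The liver libraries, 1 with TruSeq (TS-HiSeq-ML) and 1 with NEXTflex (NF-HiSeq-ML), came from the same RNA of a single young adult C57BL/6J female that had received saline by tail vein and was fasted overnight before collection. The kits join adapters to both ends of short RNAs before reverse transcription and amplification. TruSeq and v1.5 use fixed adapters with different sequences, whereas NEXTflex uses adapters with random bases at the ligation boundary. The TS-GAIIx and v1.5-GAIIx libraries shared platform, facility and date. The NF-HiSeq library differed from both in its RNA, platform, facility and date, so these cannot be told apart from the kit, and comparisons of single libraries are given as values without a test.

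A miRNA is cut from a hairpin precursor, and the strand from either arm (5p or 3p) can be loaded into an Argonaute protein. Bases 2 to 8 of the loaded strand, the seed, pair with target mRNAs and direct their repression. The miR-181 family is best known from lymphocytes, where miR-181a tunes signaling of the T cell receptor, and its members are also expressed in brain, endothelium, liver and pancreatic islets.

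The 4 mature 5p sequences (RefSeq, GRCm38.p6) are shown because they share 1 seed, in capitals, and differ only behind it.
miR-181a-5p: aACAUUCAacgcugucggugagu
miR-181b-5p: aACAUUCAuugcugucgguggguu
miR-181c-5p: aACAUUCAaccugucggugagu
miR-181d-5p: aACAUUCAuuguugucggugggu
Counted from 1 at the 5′ end, miR-181b-5p differs from miR-181a-5p by A9U, C10U and A21G and is 1 base longer. From miR-181b-5p to miR-181d-5p the change is C12U. The sequence of miR-181c-5p is that of miR-181a-5p without the G at position 11. At the 3′ end, miR-181a-5p and miR-181c-5p close with gagu, miR-181b-5p with gguu and miR-181d-5p with gggu.

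The hairpins lie in 3 pairs in the genome (GRCm38). Mir181a-1 (chromosome 1, 137966455 to 137966541, plus strand) and Mir181b-1 (137966639 to 137966718) are 97 nt apart in an exon of the noncoding gene A430106G13Rik. Mir181a-2 (chromosome 2, 38852735 to 38852810, plus strand) and Mir181b-2 (38853830 to 38853918) are 1019 nt apart, opposite in strand to an intron of Nr6a1, which codes for an orphan nuclear receptor. Mir181c (chromosome 8, 84178873 to 84178961, minus strand) and Mir181d (84178716 to 84178787) are 85 nt apart in an intron of Nanos3 on the same strand. The 2 hairpins of miR-181a are shown with both arms in capitals, because their 5p arms are identical and only the 3p arms tell them apart.
Mir181a-1: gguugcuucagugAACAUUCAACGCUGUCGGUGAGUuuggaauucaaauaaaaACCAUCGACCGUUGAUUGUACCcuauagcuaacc
Mir181a-2: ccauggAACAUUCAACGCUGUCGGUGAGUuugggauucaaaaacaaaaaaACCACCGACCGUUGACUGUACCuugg
From miR-181a-1-3p to miR-181a-2-3p the changes are U5C and U16C, the first of them in the seed.

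Levels are given in RPMM, that is counts scaled to 1e+06 mapped reads, for reads that start at the 5′ end of a member. The deposited counts summed to between 6.92e+06 and 2.56e+07 per library. Replicates were distinct libraries, as their counts differed beyond sampling noise (chi-square divided by its degrees of freedom between 39.4 and 236). The NEXTflex libraries held few distinct alignments, with 102 (NF-HiSeq) and 80.2 (NF-HiSeq-ML) counts per alignment against 6.96 to 15.2 in the others. The labelled sources were borne out by their marker miRNAs. The beta-cell miRNA miR-375-3p lay between 64950 and 186331 RPMM in the MIN6 libraries and at 40.0 and 26.7 RPMM in liver, and the hepatocyte miRNA miR-122-5p at 17244 and 532452 RPMM in liver against at most 128 RPMM in MIN6.

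Together the 4 5p members held 4651 ± 137 RPMM in TS-GAIIx (SD, n = 3) and 1197 ± 19.6 RPMM in the v1.5 libraries (SD, n = 3), 3.88-fold more with TruSeq. The same sum was 5482 RPMM in NF-HiSeq, 5238 RPMM in TS-HiSeq-ML and 926 RPMM in NF-HiSeq-ML. In all 9 libraries miR-181a-5p was the most abundant member, but the order of the other members differed between kits and sources. In TS-GAIIx it was a, b, c, d, and in v1.5-GAIIx and NF-HiSeq it was a, b, d, c, without overlap of neighbors between the replicates of TS-GAIIx or of v1.5-GAIIx. NF-HiSeq is a single library, so its order has no replicate check.

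**Figure D1:**
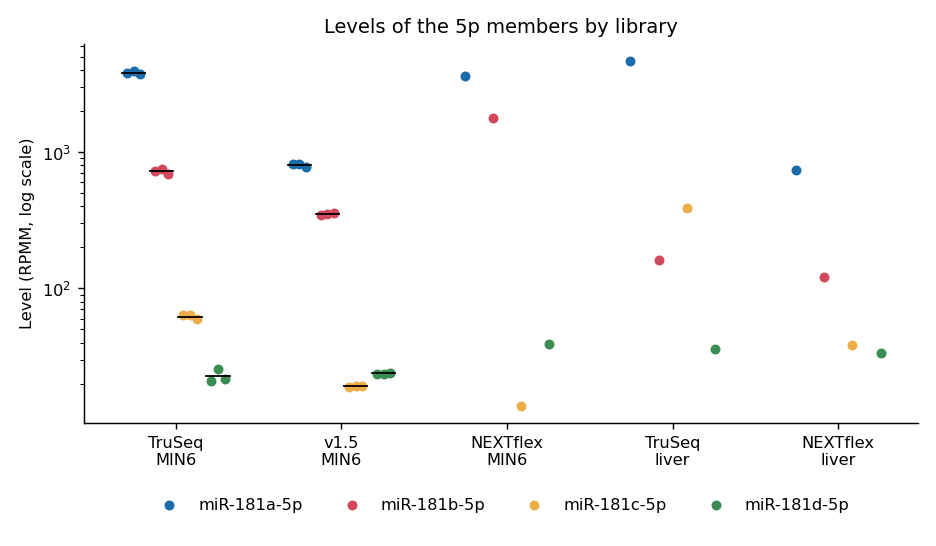
Level of each 5p member in RPMM (log axis) by kit and source. Each point is 1 library and the bars are means of the 3 replicates. miR-181a-5p, miR-181b-5p and miR-181c-5p lie lower in v1.5 than in TruSeq MIN6 libraries, whereas the points of miR-181d-5p overlap between these kits.

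To ask how far the choice between the Illumina kits alters the family in the same cells, v1.5-GAIIx was compared with TS-GAIIx by edgeR's quasi-likelihood test over all 5′ ends. Of the 7 arms that passed the filter of a mean of 1 RPMM, 5 were called at an adjusted p under 0.05, all of them lower with v1.5. Among all 5′ ends tested, 76.0% were called, 30.6% lower with v1.5 and 45.5% higher. The share of called arms was thus close to the background. The median log2 fold change of all 5′ ends was 0.58, and scaling by TMM or DESeq2 size factors moved it to 0.22 and 0.18. Every log2 fold change of a member moves by nearly the same amount under these scalings. Of the members, miR-181a-5p and miR-181b-5p had a mean of at least 100 RPMM and both were called, where 89.5% of all such 5′ ends were called and 45% were lower with v1.5.

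The most abundant member, miR-181a-5p, stood at 3816, 3952 and 3751 RPMM in the TS-GAIIx libraries and at 817, 816 and 775 RPMM in the v1.5-GAIIx libraries. The groups lay far apart, as they did for 80.8% of all 5′ ends tested, whose groups did not overlap either. Its log2 fold change was -2.26 (SE 0.0434, edgeR adjusted p = 2.36e-06).

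Next in MIN6 cells came miR-181b-5p, whose 2 hairpins lie beside those of miR-181a-5p. It had 733, 757 and 692 RPMM in the TS-GAIIx libraries and 347, 351 and 357 RPMM in v1.5-GAIIx. All v1.5 libraries lay below all TruSeq libraries, by a log2 fold change of -1.05 (SE 0.0536, edgeR adjusted p = 2.39e-05).

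From the Nanos3 intron, miR-181c-5p had 63.4, 63.5 and 59.1 RPMM in the TS-GAIIx libraries and 18.7, 19.3 and 19.3 RPMM in v1.5-GAIIx. It was again lower in every v1.5 library, with a log2 fold change of -1.70 (SE 0.0792, edgeR adjusted p = 1.81e-05).

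Its neighbor miR-181d-5p, 85 nt away, had 20.9, 25.4 and 21.4 RPMM in the TS-GAIIx libraries and 23.5, 23.6 and 24.1 RPMM in v1.5-GAIIx. The values overlapped between kits. Its log2 fold change was 0.07 with a 95% interval from -0.19 to 0.34 (SE 0.108, edgeR adjusted p = 0.569). This member is the one whose sign depends on the scaling: it was -0.28 with TMM factors (adjusted p = 0.0914), -0.31 with DESeq2 size factors (adjusted p = 0.0646) and -0.32 in the DESeq2 test (adjusted p = 0.0474).

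The 3p arms, usually degraded after the 5p strand is loaded, were scarcer in every library than the 5p arm of their miRNA, copies merged. Reads that match both hairpin copies were divided evenly, so the 5p level of a single copy was not measured. The largest, miR-181a-1-3p, had 94.2, 90.3 and 95.2 RPMM in the TS-GAIIx libraries and 33.1, 32.9 and 34.2 RPMM in v1.5-GAIIx. It was lower with v1.5 in all libraries, with a log2 fold change of -1.48 (SE 0.0711, edgeR adjusted p = 1.96e-05). For miR-181c-3p the levels were 11.7, 9.64 and 7.47 RPMM in the TS-GAIIx libraries and 2.62, 2.35 and 3.18 RPMM in v1.5-GAIIx, which did not overlap (log2 fold change -1.82, SE 0.224, edgeR adjusted p = 0.000559). The levels of miR-181b-1-3p, 3.46, 2.79 and 3.90 RPMM in the TS-GAIIx libraries and 2.70, 3.14 and 2.79 RPMM in v1.5-GAIIx, did overlap. Its log2 fold change was -0.23 with a 95% interval from -0.68 to 0.21 (edgeR adjusted p = 0.279), and it passed the threshold with TMM factors (-0.60, adjusted p = 0.0448).

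**Figure D2:**
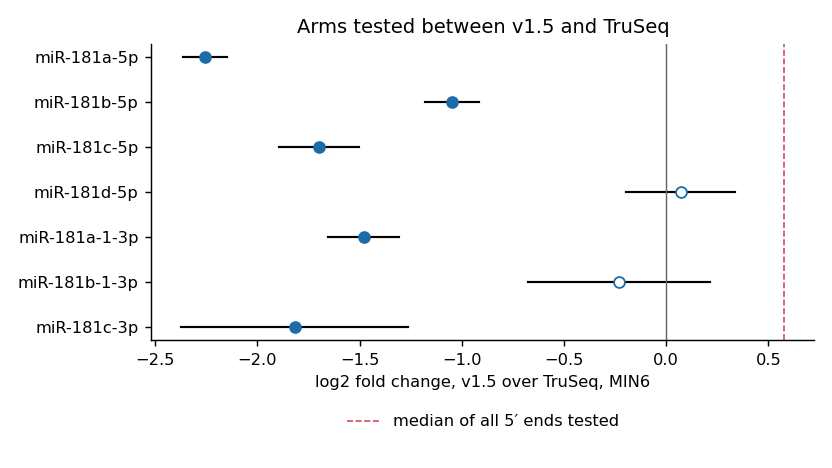
log2 fold change of v1.5 over TruSeq in MIN6 for the 7 arms tested, with the 95% interval of the edgeR fit as a line. Filled points have an adjusted p under 0.05; miR-181d-5p and miR-181b-1-3p (open) have intervals that include 0, and the dashed line marks the median of all 5′ ends, 0.58.

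The other arms were not tested. No count of miR-181b-2-3p was found in any library. A single count of miR-181d-3p occurred in 1 TS-GAIIx and in 1 v1.5-GAIIx library. No count of miR-181a-2-3p was found in the 7 MIN6 libraries, where a count of 0 allows up to 0.117 to 0.452 RPMM (3 counts per library; such limits cover counting error only).

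The proportions of the members differed between the kits. The ratio of miR-181a-5p to miR-181b-5p, partners in both clusters, was 5.21, 5.22 and 5.42 in TS-GAIIx and 2.35, 2.32 and 2.17 in v1.5-GAIIx. The groups did not overlap, and the log2 difference between them was -1.21. The exact permutation test (two-sided) gave p = 0.1, the smallest that 3 against 3 libraries allow, or 0.143 adjusted over 20 tests, so no ratio could pass a threshold of 0.05.

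In the third pair, the ratio of miR-181c-5p to miR-181d-5p was 3.04, 2.50 and 2.76 in TS-GAIIx and 0.796, 0.816 and 0.799 in v1.5-GAIIx. Here the order of the 2 members was the opposite in the 2 kits, again with an exact permutation p of 0.1. The ratio of miR-181b-5p to miR-181d-5p, which differ by 1 base over their shared length, was 32.4 ± 2.67 with TruSeq and 14.8 ± 0.0542 with v1.5 (SD, n = 3 each), without overlap. The ratio of miR-181a-5p to miR-181c-5p was 62.0 ± 1.62 in TS-GAIIx and 42.1 ± 1.72 in v1.5-GAIIx (SD, n = 3 each).

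Ratios of 5p to 3p arm differed as well. For miR-181a the 5p arm exceeded both 3p arms together 40.5, 43.8 and 39.4 times in TS-GAIIx and 24.7, 24.8 and 22.7 times in v1.5-GAIIx, without overlap. For miR-181c the ratio was 5.40, 6.59 and 7.91 in TS-GAIIx and 7.15, 8.21 and 6.06 in v1.5-GAIIx. These overlapped, with a log2 difference of 0.11 (exact permutation p = 0.6), since both arms were lower in v1.5 by similar amounts. Between neighboring 3p arms, the ratio of miR-181a-1-3p to miR-181b-1-3p was 27.2, 32.3 and 24.4 in TS-GAIIx and 12.3, 10.5 and 12.2 in v1.5-GAIIx.

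**Figure D3:**
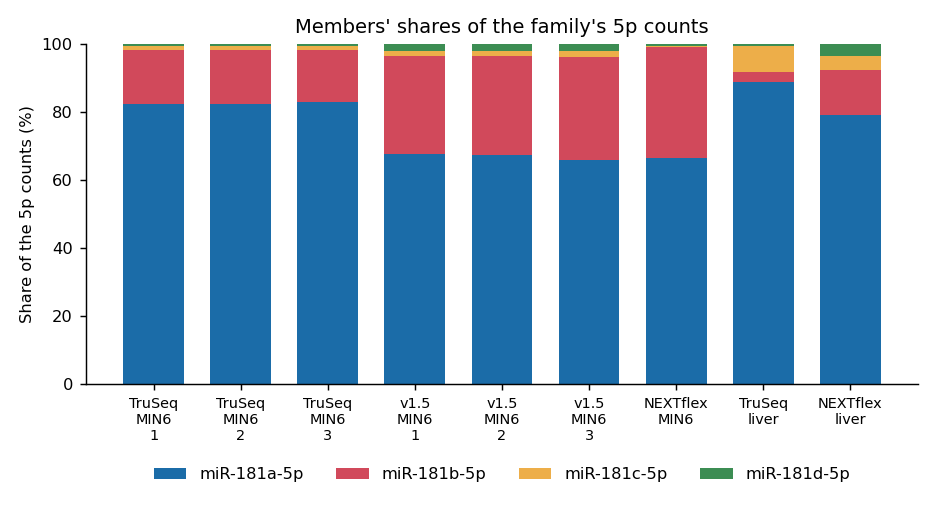
Share of each 5p member in the family's 5p counts (percent, stacked bars from 0) in the 9 libraries. miR-181a-5p makes up 82.4% to 82.9% in TruSeq MIN6 libraries and 66.0% to 67.7% in v1.5 libraries, and miR-181c-5p is the second largest share only in the TruSeq liver library.

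As shares of the family's 5p counts, miR-181b-5p made up 15.3% to 15.8% in TS-GAIIx and 28.8% to 30.4% in v1.5-GAIIx. The share of miR-181d-5p was 0.450% to 0.530% with TruSeq and 1.95% to 2.05% with v1.5. That of miR-181c-5p, 1.31% to 1.37% against 1.55% to 1.64%, lay closest together.

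Within 1 member the difference between the kits depended on where the read ended. The reads of miR-181a-5p that start at its first base and differ only at the 3′ end are shown, with bases behind the mature sequence in capitals.
22 nt: aacauucaacgcugucggugag
23 nt: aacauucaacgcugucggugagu
24 nt: aacauucaacgcugucggugaguU
25 nt: aacauucaacgcugucggugaguUU
26 nt: aacauucaacgcugucggugaguUUU
The genome templates 2 U behind miR-181a-5p at both of its hairpins, so the third U of the last read is untemplated. These reads were chosen as the mature sequence, cut back or lengthened with U.

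The 22-nt read of miR-181a-5p, which ends in G, held 1075 ± 24.4 RPMM in the TS-GAIIx libraries and 38.0 ± 0.416 RPMM in the v1.5 libraries (SD, n = 3 each), 28.3-fold less with v1.5. The full 23-nt read held 2103 ± 66.6 RPMM and 368 ± 10.9 RPMM, 5.72-fold less. With 1 more U the difference shrank to 2.59-fold (288 ± 12.7 RPMM against 111 ± 1.90 RPMM). With 2 more U the levels overlapped, at 119 ± 8.85 RPMM in the TS-GAIIx libraries and 113 ± 8.29 RPMM in v1.5-GAIIx. With 3 more U the read was 2.47-fold more highly detected by v1.5 (17.5 ± 3.10 RPMM against 43.3 ± 3.48 RPMM). The 21-nt read, which ends in A, was 1.21-fold lower with v1.5 (90.7 ± 8.96 RPMM against 74.7 ± 0.562 RPMM). Reads of 1 miRNA that differ by 1 to 4 bases thus spanned log2 differences from -4.82 to 1.31 between the kits.

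Much the same course was seen for miR-181b-5p. Its 22-nt read, ending in G, was 8.94-fold lower with v1.5 (226 ± 2.95 RPMM against 25.3 ± 0.782 RPMM), and its 24-nt mature read was 1.88-fold lower (177 ± 10.4 RPMM against 94.1 ± 5.75 RPMM). With 2 more U it was 1.85-fold higher with v1.5 (9.20 ± 2.40 RPMM against 17.0 ± 0.615 RPMM). The 21-nt read, which also ends in G, went the other way, 2.79-fold higher with v1.5 (20.2 ± 0.113 RPMM against 56.3 ± 3.20 RPMM). Reads that end in G thus lay on both sides.

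For miR-181c-5p the commonest TruSeq read was 1 U longer than the mature sequence. It held 32.4 ± 0.871 RPMM in the TS-GAIIx libraries and 4.40 ± 0.397 RPMM in v1.5-GAIIx, 7.37-fold less. The read with 2 more U was 1.18-fold lower (8.23 ± 0.588 RPMM against 6.95 ± 0.774 RPMM), and the read with 3 more U, the last of them untemplated, was 3.06-fold higher with v1.5 at under 2 RPMM. For miR-181d-5p, whose total did not differ, the 22-nt read was 3.05-fold lower with v1.5 (4.19 ± 1.28 RPMM against 1.37 ± 0.440 RPMM) and the 23-nt mature read 1.53-fold higher (6.08 ± 0.414 RPMM against 9.32 ± 0.581 RPMM). Its 24-nt read, on average the commonest with TruSeq, overlapped between the kits (7.77 ± 1.14 RPMM against 6.63 ± 0.752 RPMM). The near equality of its totals thus covered reads that differed in opposite directions beside reads that overlapped.

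**Figure D4:**
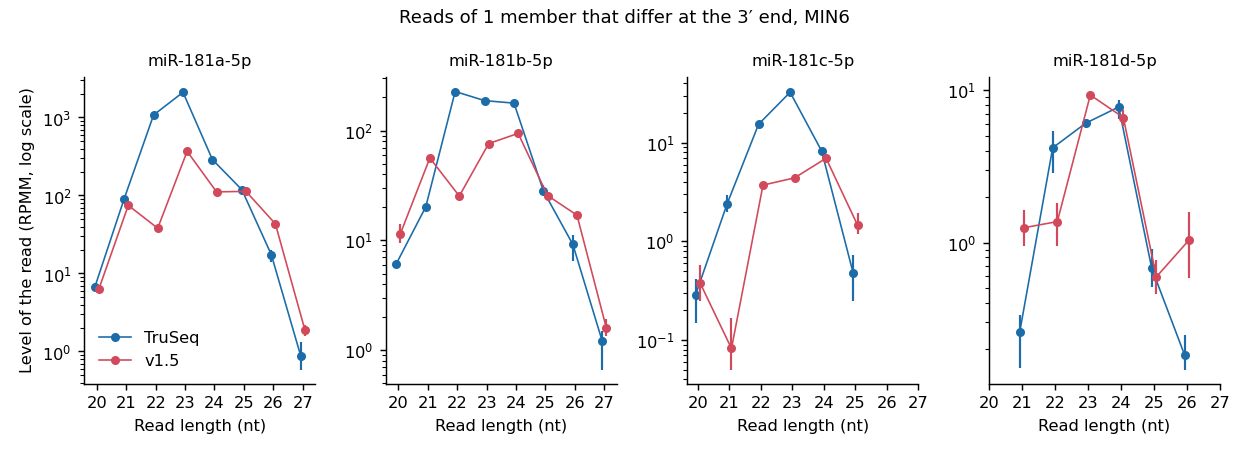
Level in RPMM (log axes, 1 panel per 5p member) of the reads of a given length that follow the mature sequence and then U, in MIN6. Points are means of the 3 TruSeq or 3 v1.5 libraries and vertical lines run from the lowest to the highest library (a lowest value of 0 is drawn at 0.05); the TruSeq excess is largest 1 or 2 bases short of the mature end for miR-181a-5p and miR-181b-5p and is gone or inverted for the longest reads.

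Over all reads that start at the member's 5′ end, the mean length of miR-181a-5p was 22.8 ± 0.0174 nt in TS-GAIIx and 23.4 ± 0.0271 nt in v1.5-GAIIx (SD, n = 3 each). Reads of 25 nt or more made up 3.91% ± 0.329 with TruSeq and 21.5% ± 0.909 with v1.5. The share of reads whose last base mismatches the genome was 1.91% ± 0.0864 with TruSeq and 7.72% ± 0.214 with v1.5, of which U made up 0.896% and 6.25%. Over 5′ ends of at least 100 RPMM this share was 9.0% to 9.55% in TS-GAIIx and 7.80% to 7.94% in v1.5-GAIIx, the opposite direction. The other measures differed in the same direction over these 5′ ends as in miR-181a-5p: the last base mismatched as U on 4.09% to 4.2% with TruSeq and 4.80% to 4.90% with v1.5, the mean length was 20.7 to 21.1 nt and 22.3 nt, and reads of 25 nt or more made up 2.65% to 3.5% and 7.25% to 7.89%. For miR-181c-5p the mean length was 22.8 ± 0.0235 nt with TruSeq and 23.4 ± 0.0504 nt with v1.5. For miR-181b-5p the mean lengths overlapped (22.99 ± 0.0419 nt against 23.09 ± 0.0654 nt, exact permutation p = 0.2, SD, n = 3 each), while reads of at most 21 nt (4.92% against 23.4%) and of 25 nt or more (7.88% against 17.1%) were both more frequent with v1.5. For miR-181d-5p they overlapped at 23.5 ± 0.0555 nt and 23.5 ± 0.155 nt. All 4 members kept their 5′ ends: reads starting within 5 nt of the member but not at it made up at most 4.07% of its reads in MIN6, so the shared seed was that of nearly all reads.

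The untemplated 3′ U was most frequent on miR-181b-1-3p. Its leading read in TS-GAIIx carried A21U.
miR-181b-1-3p: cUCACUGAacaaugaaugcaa
leading TruSeq read: cucacugaacaaugaaugcau
Reads with a mismatching last base made up 95.7%, 57.6% and 78.7% of its counts in TS-GAIIx and 26.5%, 24% and 24.1% in v1.5-GAIIx. With alignments that have no mismatch, miR-181b-1-3p was higher with v1.5 (log2 fold change 1.62, edgeR adjusted p = 0.0173), the opposite of its sign over all reads. These shares rest on 19.1 to 47 counts per library.

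The 2 copies of the miR-181b-5p hairpin could be told apart only by long reads. Up to 24 nt, each copy had the same level in every library because reads were divided evenly, for example 562 RPMM in NF-HiSeq. Above 24 nt, Mir181b-2 held 645 RPMM in NF-HiSeq and Mir181b-1 held 17.3 RPMM. In TS-GAIIx these were 49.8, 56.7 and 42.3 RPMM for Mir181b-2 and 8.45, 9.13 and 5.98 RPMM for Mir181b-1. The genome templates 1 U behind miR-181b-5p at Mir181b-2 and none at Mir181b-1, so a read with 1 more U matches only the second copy without a mismatch, whatever copy it came from. These reads do not measure the use of the 2 loci. The 3p arms of the 2 copies differ by A9U. In the GAIIx libraries miR-181b-1-3p had 19.1 to 47 counts, whereas miR-181b-2-3p had no count in any library.

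A similar limit applied to miR-181d-5p. Base 12 separates it from miR-181b-5p (C12U), and 5.33% to 9.13% of its counts in the GAIIx libraries came from reads with the C of miR-181b-5p. The commonest of them in v1.5-GAIIx and NF-HiSeq is shown beside the mature sequence.
miR-181d-5p: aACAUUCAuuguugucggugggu
read counted at miR-181d-5p: aacauucauugcugucgguggguuau
Counted from the 5′ end, this read differs from miR-181d-5p by U12C and is longer at the 3′ end. In NF-HiSeq the share of such reads was 31.5%, so that 26.6 of its 39.0 RPMM carried the U of miR-181d-5p. Counting only reads with that U, miR-181d-5p held 20.6 ± 2.20 RPMM in the TS-GAIIx libraries and 22.1 ± 0.563 RPMM in the v1.5 libraries (SD, n = 3 each). At most 0.492% of the counts of miR-181b-5p carried U at this position.

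To see the family with degenerate adapters, NF-HiSeq was set beside the mean of each group of 3 Illumina libraries. Folds here are ratios after 1 RPMM was added, in arms and 5′ ends whose mean over the 2 sides compared was at least 10 RPMM. Between NF-HiSeq and TS-GAIIx, miR-181a-5p was nearly level (3643 against 3840 RPMM, 0.949-fold). The level of miR-181b-5p was 2.45-fold higher in NF-HiSeq (1786 against 727 RPMM), and that of miR-181c-5p was 4.29-fold lower (13.7 against 62.0 RPMM). The 350 counts of miR-181c-5p in NF-HiSeq lay in 10 distinct alignments. None was its 22-nt mature read, which held 15.4 RPMM in TS-GAIIx. Of the 5 arms compared, 1 was more than 2-fold higher and 2 were more than 2-fold lower, miR-181c-5p and miR-181a-1-3p (44.6 against 93.2 RPMM, 2.07-fold). The last of these lay within 2-fold when 5 RPMM were added or the sum of all counts was the library size, and miR-181b-5p when only reads of at most 24 nt were counted. Over all 5′ ends so compared, 82.7% were past 2-fold, 30.7% higher and 52% lower.

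Against v1.5-GAIIx, NF-HiSeq had 4.53-fold more miR-181a-5p and 5.06-fold more miR-181b-5p, the 2 arms of 5 past 2-fold, whereas 81.3% of all 5′ ends were past 2-fold, 24.7% higher and 56.6% lower. In this comparison miR-181c-5p (13.7 against 19.1 RPMM) and miR-181d-5p (39.0 against 23.7 RPMM) stayed within 2-fold. With 2.04, the ratio of miR-181a-5p to miR-181b-5p in NF-HiSeq was just below the v1.5-GAIIx range of 2.17 to 2.35 and far from the TS-GAIIx range. The 2 comparisons share the NF-HiSeq library.

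In NF-HiSeq the reads of both leading members were the longest of any MIN6 library. The mean length of miR-181a-5p was 23.6 nt, with 29.0% of reads of 25 nt or more, and that of miR-181b-5p was 24.2 nt with 37.1%. A last base that mismatches as U was on 8.19% of miR-181a-5p counts and on 20.9% of miR-181b-5p counts. The read with 2 more U held 741 RPMM for miR-181a-5p, against 119 RPMM in the TS-GAIIx libraries and 113 RPMM in v1.5-GAIIx. No count of miR-181b-1-3p or miR-181c-3p was found in NF-HiSeq. Against the limit of 3 counts, miR-181c-3p was at least 82.0-fold lower than in TS-GAIIx and at least 23.1-fold lower than in v1.5-GAIIx. How the small number of distinct alignments in this library bears on such zeros was not tested.

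In liver, where both kits were applied to the same RNA, miR-181a-5p was 6.34-fold lower with NEXTflex (4651 RPMM in TS-HiSeq-ML and 733 RPMM in NF-HiSeq-ML). A larger difference was seen for miR-181c-5p, 9.90-fold lower with NEXTflex (389 and 38.4 RPMM). Its 552 counts in NF-HiSeq-ML lay in 10 distinct alignments. None was the 22-nt mature read, which held 200 RPMM in TS-HiSeq-ML. By contrast, miR-181b-5p (162 and 121 RPMM) and miR-181d-5p (36.1 and 33.6 RPMM) were within 2-fold. Of the 5 arms compared, 3 were more than 2-fold lower and none was higher, against 54.2% lower and 22.7% higher of all 5′ ends (76.9% past 2-fold). The median 5′ end was itself 0.399-fold, and of the 5 arms miR-181a-5p, miR-181c-5p and miR-181a-2-3p, the last without a NEXTflex count, lay below that median. As miR-181a-2-3p passed the filter only through its TruSeq level, its direction was fixed by the filter. Each value is 1 library, with no replicate check.

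The kits also disagreed on the order of the members in the same liver RNA. The intervals given here cover counting error only, and the reads had no molecular identifiers to mark copies from amplification. With TruSeq miR-181c-5p was second (7.42% of the 5p counts, Wilson 95% interval 7.25% to 7.60%) and miR-181b-5p came after it (3.10%, 2.98% to 3.22%). With NEXTflex miR-181b-5p was second (13.1%, 12.5% to 13.7%), and miR-181c-5p (4.14%, 3.82% to 4.49%) and miR-181d-5p (3.62%, 3.32% to 3.95%) had overlapping intervals. The ratio of miR-181a-5p to miR-181b-5p was 28.7 in TS-HiSeq-ML and 6.05 in NF-HiSeq-ML, so both kits placed it above their own MIN6 value.

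**Figure D5:**
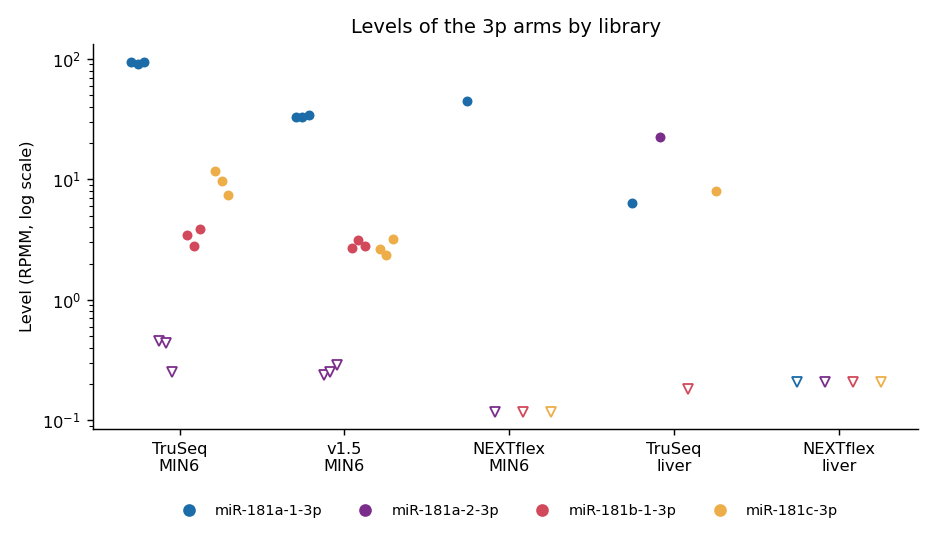
Level of the 3p arms in RPMM (log axis) by kit and source, 1 point per library; open triangles are libraries without a count, drawn at the level of 3 counts. miR-181a-2-3p was counted only in the TruSeq liver library, where it exceeded miR-181a-1-3p.

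The 3p arms of the 2 miR-181a hairpins differed between the TruSeq liver library and the MIN6 libraries. This contrast rests on 1 liver library. The 2 arms differ in sequence, and whether a kit detects them equally was not tested. In TS-HiSeq-ML miR-181a-2-3p had 22.6 RPMM (373 counts) and miR-181a-1-3p 6.37 RPMM (105 counts), so Mir181a-2 gave 78.0% of these 3p counts (Wilson 95% interval 74.1% to 81.5%). In each of the 7 MIN6 libraries all miR-181a 3p counts, from 355 to 1146, came from Mir181a-1, and the upper bound of the Wilson interval for Mir181a-2 was at most 1.07%. Within TruSeq, miR-181a-2-3p was at least 59.6-fold lower in MIN6 than in liver, against the limit of 3 counts in each MIN6 library, and miR-181a-1-3p was 12.8-fold higher. In NF-HiSeq-ML neither arm had a count, so this library does not speak to the choice between them. With the same limit, which covers counting error only, miR-181a-2-3p was at least 108-fold lower in NF-HiSeq-ML than in TS-HiSeq-ML. How the small number of distinct alignments in NF-HiSeq-ML bears on this bound was not tested.

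Comparing MIN6 with liver within a kit asks which members differ between the sources. The TruSeq libraries of MIN6 and liver were also sequenced on different platforms. The study names TRIzol extraction for its NIH samples and the Norgen kit for liver. It gives no facility or date for the liver libraries. Such differences cannot be told apart from the source. With TruSeq, miR-181b-5p was 4.46-fold higher in MIN6 (727 against 162 RPMM) and miR-181c-5p was 6.19-fold lower (62.0 against 389 RPMM). With NEXTflex, miR-181b-5p was 14.6-fold higher in MIN6 (1786 against 121 RPMM) and miR-181c-5p was 2.68-fold lower (13.7 against 38.4 RPMM). The 2 kits thus gave the same sign for these 2 members. For miR-181a-5p they did not, since TruSeq had 3840 RPMM in MIN6 and 4651 RPMM in liver while NEXTflex had 3643 and 733 RPMM. For miR-181d-5p the values were 22.6 and 36.1 RPMM with TruSeq and 39.0 and 33.6 RPMM with NEXTflex, all within 2-fold.

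Of the 6 arms with a mean of at least 10 RPMM over the 2 sources with TruSeq, 2 were higher in MIN6 past 2-fold and 2 lower. Among all 5′ ends so compared these shares were 37.7% and 52.8% (90.5% past 2-fold). Of the 5 with NEXTflex, 3 were higher and 1 was lower, against 33.6% and 42.6% (76.2% past 2-fold). The higher arms with NEXTflex include miR-181a-1-3p (44.6 RPMM in MIN6, no count in liver). The lower arms with TruSeq include miR-181a-2-3p (22.6 RPMM in liver, no count in MIN6). The higher arms with TruSeq include miR-181a-1-3p (93.2 RPMM in MIN6, 6.37 RPMM in liver). Each of these passed the filter only through 1 source, so its direction was fixed by the filter. In bulk tissue, fewer cells of a type and less RNA per cell cannot be told apart. Markers of other cell types were high in liver: the 3 blood miRNAs that were placed, of 6, summed to 4190 RPMM in TS-HiSeq-ML and 137 RPMM in NF-HiSeq-ML against at most 6.50 RPMM in MIN6. The endothelial miR-126-3p and miR-126-5p summed to 8968 and 2725 RPMM in liver and to between 84.9 and 287 RPMM in MIN6. Their part in the liver values was not tested.

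In liver the ends of the reads differed from those in MIN6 too. In TS-HiSeq-ML the mean length of miR-181a-5p was 22.4 nt and reads of 25 nt or more made up 0.636%, both below TS-GAIIx. Over 5′ ends of at least 100 RPMM the direction was the opposite. The mean there was 24.7 nt in TS-HiSeq-ML and 20.7 to 21.1 nt in TS-GAIIx, and reads of 25 nt or more made up 30.3% and 2.65% to 3.5%. The last base mismatched as A on 19.7% of miR-181b-5p counts and 18.7% of miR-181d-5p counts, against 3.20% to 3.70% and 0.388% to 3.97% in TS-GAIIx. Over 5′ ends of at least 100 RPMM this share was 5.81% in TS-HiSeq-ML and 1.5% to 1.60% in TS-GAIIx. In NF-HiSeq-ML it was 0.0574% for miR-181b-5p, against 14.1% over the 5′ ends of at least 100 RPMM. In NF-HiSeq-ML the last base mismatched as U on 16.9% of miR-181b-5p and 24.9% of miR-181d-5p counts, against 3.86% over these 5′ ends.

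The profile of miR-181a-5p over the 9 libraries was compared with that of 233 other reference miRNAs, as the Pearson correlation of log2(RPMM + 1). The most alike were miR-125a-5p (r = 0.934), miR-26a-5p (0.911), miR-92b-3p (0.880), miR-148a-5p (0.788) and miR-151-3p (0.767). Within the family r was 0.597 for miR-181c-5p, 0.508 for miR-181b-5p and 0.153 for miR-181d-5p. These are descriptions over libraries that share kits, RNA and depth, with no test. Like miR-181a-5p, miR-125a-5p was lower with v1.5 in MIN6 (8425 ± 506 RPMM in the TS-GAIIx libraries and 1023 ± 77.3 RPMM in the v1.5 libraries, SD, n = 3 each) and lower with NEXTflex in liver (3490 and 690 RPMM).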

How the data were processed

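Small RNA was measured in 9 libraries, grouped by the labels' titles. Each deposited file holds 1 line per distinct alignment with an expected count, made by the authors by trimming adapters (cutadapt; in NEXTflex reads the 4 outer bases at each end), aligning to mm9 (Bowtie, per the labels) and dividing reads evenly among equally good places. Tool versions are not given in the sources used here. The deposited expected counts are not scaled, and reads had no molecular identifiers.

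RPMM was obtained by adding up the counts of each 5′ end over the mapped reads that the study lists. Members were located by equality of these values with the study's tables of miRNA levels (342 of 358 MIN6 entries and 171 of 178 liver entries were placed). miR-181d-5p was located 164 nt from miR-181c-5p by its mismatching bases (0 of 1546 such counts in conflict, against 15.7% at the next position), and the 3p arms by their offset in the hairpin. Coordinates come from the GRCm38 annotation and were not converted.

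Rounded counts were tested with edgeR 4.0.16 (quasi-likelihood, mapped reads as library size, mean of at least 1 RPMM, Benjamini-Hochberg adjustment over 16484 5′ ends, R 4.3.3). Intervals are the log2 fold change ± SE times the t quantile of the fit at 95%. Size factors and an alternative test came from DESeq2 1.42.0. In simulated data for this comparison the test recovered 69 of 100 5′ ends changed 2-fold and 89 of 100 changed 4-fold, with 7 false calls among 16484. The simulated counts had a fixed dispersion and no other changed 5′ ends, whereas 76.0% were called in the real data. The number of false calls therefore need not hold there. Ratios and read forms were compared by exact two-sided permutation (20 tests). Replicates with the same number did not deviate together (correlations 0.13, -0.15 and -0.12), so the fit has no block. Pairs with different numbers gave correlations from -0.41 to 0.44. The highest were 0.44 (TruSeq 2 with v1.5 3), 0.40 (1 with 2) and 0.36 (3 with 1). A fit with these pairs was not run. The study describes the libraries as biological replicates; the labels do not say whether they came from separate cultures, and p-values measure the spread between these libraries. Python 3.11.15, pandas 2.3.3 and SciPy 1.17.1 were used.

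The members, the lists and the tests were chosen with earlier results of these data known. Named were the 4 members, the 3p arms, marker miRNAs of 4 cell types and the 5 miRNAs most alike to miR-181a-5p; the reads by 3′ end and the count of base 12 were added after values were seen. Alternatives were other scalings and filters, 1 copy in place of both, alignments without mismatch or with whole-number counts, reads of at most 24 nt (added after the data were seen) and each replicate left out. TS-HiSeq libraries of MIN6 are not analysed here.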

Additional observations from a re-analysis of the deposited data

Results flagged for a closer look

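The difference between MIN6 and liver had opposite signs in the 2 kits for miR-181a-5p, with a log2 fold of MIN6 over liver of -0.28 within TruSeq and 2.31 within NEXTflex. For miR-181d-5p it was -0.65 within TruSeq and 0.21 within NEXTflex over all reads. Counting only reads with the base of miR-181d-5p at position 12, the opposite sign was lost: NEXTflex had 26.6 RPMM in MIN6 and 31.3 RPMM in liver, and TruSeq had 20.6 and 35.8 RPMM. Likewise, the log2 fold of NEXTflex over TruSeq was 1.30 in MIN6 and -0.42 in liver for miR-181b-5p, and 0.76 in MIN6 and -0.10 in liver for miR-181d-5p. The last value was 0.0086 with the sum of all counts as library size, so that its sign rests on the scaling. With 1 library on at least 1 side of each comparison these differences were not tested, and the comparisons share libraries. The MIN6 value of miR-181d-5p in NF-HiSeq includes 12.3 RPMM of reads with the base of miR-181b-5p at position 12.

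Outside the sense reads, 21.3 counts lay antisense to Mir181a-2 in NF-HiSeq, above the 3 counts used as a limit, beside 46999 sense counts. The other libraries had at most 1.5 antisense counts over any hairpin of the family.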

How the results depend on the processing

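The calls of miR-181c-5p, miR-181a-1-3p and miR-181c-3p were made under every alternative in which they passed the filter. Of the 7 arms tested, 5 were called, and leaving out 1 replicate at a time again gave 5. The number was 6 with TMM factors, DESeq2 size factors, the DESeq2 test and alignments without mismatch, 2 with a mean of at least 100 RPMM, where only 2 members were left, and 3 with whole-number counts. The 12531 5′ ends called became 27362 without a filter, 513 at 100 RPMM, 3460 with whole-number counts and 11624 to 12456 without 1 replicate. With whole-number counts the log2 fold change of miR-181a-5p was -2.66 (adjusted p = 0.124) and that of miR-181b-5p turned to 0.43; this setting drops reads that were divided into a count that is not whole. miR-181d-5p turned to -0.28 with TMM factors, -0.31 with DESeq2 size factors and -0.32 in the DESeq2 test, and miR-181b-1-3p to 1.62 without mismatches. The log2 difference of the ratio of miR-181c-5p to miR-181c-3p turned to -0.34 without mismatches and -0.074 with reads of at most 24 nt, and ranged from -0.027 to 0.25 without 1 replicate. With whole-number counts, v1.5 minus TruSeq turned to -0.38 and -0.91 percentage points for off-start reads of miR-181a-5p and miR-181b-5p, to -2.27 points for mismatching last bases of miR-181a-5p and to 0.079 nt for the mean length of miR-181d-5p. Except where a cause is named, it was not tested.

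The ratio of miR-181a-5p to miR-181b-5p kept its sign, with log2 differences from -1.23 to -1.18 without 1 replicate. As the replicate numbers did not pair the libraries, the replicate block is given only here: with it the test called 12836 5′ ends, 12242 of them shared, and the same 5 arms, with -2.26 for miR-181a-5p. Depth limits the 3p arms, of which miR-181b-1-3p had 19.1 to 47 counts per GAIIx library. Among the folds of single libraries, that of miR-181b-5p in NF-HiSeq over TS-GAIIx went from 1.30 to 0.75 (log2) with reads of at most 24 nt. The arms past 2-fold in that comparison went from 3 to 2 with this setting, with 5 RPMM added and with the sum of all counts as library size. Fitted folds of arms at 0 in 1 library depend on the RPMM added, as for miR-181a-2-3p in liver, from -4.56 to -7.83 with 0.1 RPMM.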
